A study of Mus musculus with 4 samples.

Results

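Replication-dependent histone genes encode the core histones H2A, H2B, H3 and H4 and the linker histone H1 that package newly copied DNA. The mouse has many near-identical copies of each, most of them short genes without introns that lie close together, and their transcripts end in a stem-loop in place of a poly(A) tail. They are transcribed mainly while a cell copies its DNA, so in the colon they are a product of the dividing crypt cells. A smaller set of related genes is used in germ cells only, and replacement histones, made from dispersed genes throughout the cell cycle, stand beside both.

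The accessibility of these genes was read from ATAC-seq of mouse colonic organoids, epithelial cultures in which the Tn5 transposase marks open chromatin. Members were taken by symbol from the mouse gene table of build GRCm38.p6, whose coordinates are those of mm10: every gene named Hist1h, Hist2h, Hist3h or Hist4, or, in the newer naming, H1f, H2ac, H2bc, H3c or H4c with a number. This gave 76 of 49554 genes, 70 through the current symbol and 6 through the older one, namely H4f16, H2bu2, H2bu1-ps, H2aw, H4bc24 and H2af-ps2. Of the 76, 71 were listed as protein-coding and 5 as pseudogenes. By subfamily there were 11 H1, 21 H2A, 19 H2B, 12 H3 and 13 H4 genes, with H4bc24, whose older name is Hist1h2br, counted as H2B. The symbol rule also took in genes that are not replication-dependent: the replacement linker histones H1f0 and H1f10 and the germline genes H1f6, H1f7, H1f8, H2ac1 and H2bc1.

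The study comprised 4 groups of wild-type organoids with 1 library each: organoids from mice with chronic colitis or from healthy controls, kept for 24 h with either 10 µM T-5224, an inhibitor of the transcription factor AP-1, or 0.1% DMSO. All had the same batch label, were grown in medium with Wnt, EGF, Noggin and R-spondin, and were frozen after treatment and thawed before nuclei were taken. The data were 1 list of accessible regions for all libraries together or some of them, and it split nothing by library, so no comparison of colitis with control or of T-5224 with DMSO was possible for any histone gene. Which of the 4 it was made from is not stated in the labels. The list held 157922 summits in 113404 separate regions with a median width of 481 bp. Each summit carried the authors' fold over a single background that was the same at every base (a pileup of 7.63), and the median of the regions' strongest summits was 4.99-fold. The weakest summit had a pileup of 17. Exact Poisson 95% intervals are given for fold values and cover counting error only. Among marker genes of cell types, all 8 for colonic epithelium had a region (median 35.9-fold), where 65.9% of all protein-coding genes had one. For stroma and vessels 2 of 4 had a region (Col1a1 at 16.3-fold and Des at 2.67-fold). For leukocytes it was 1 of 4 (Cd79a, with no summit in reach) and for male germ cells 0 of 4.

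A gene was called accessible where a region came within 1000 bp of either of its outer ends, and its level was the strongest summit in that reach, or 0 without one. In bulk material a low level in all cells and a high level in a few cannot be told apart, which matters here because only part of a culture is copying its DNA at any time. The sequences that the results turn on are the stretches just upstream of the gene start, from RefSeq on GRCm38.p6, cut where a neighbouring gene begins. They are shown because the strongest summits lay in or beside them. They comprise the strongest gene with a listed start among the H2A, H2B, H3 and H4 genes, the strongest of the H1 genes in the chromosome 13 cluster, a further H4 gene that holds the H4 motif, and 2 genes without a region. Each runs 5′ to 3′ toward the start of its gene and ends at the base before it, with matches to the motifs described further on in capitals: the TATA box TATAAA and the CCAAT box, the octamer ATTTGCAT, the H4 motif GGTCCG and the H1 box AAACACA, on either strand.

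H2ac6 (chr13:23683960-23684198, minus strand, the gap shared with H2bc4): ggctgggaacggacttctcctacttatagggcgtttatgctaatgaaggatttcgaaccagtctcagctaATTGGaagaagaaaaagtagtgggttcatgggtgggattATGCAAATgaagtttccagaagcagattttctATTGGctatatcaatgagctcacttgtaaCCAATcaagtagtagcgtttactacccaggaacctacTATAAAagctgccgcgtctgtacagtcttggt
H2bc3 (chr13:23746515-23746733, plus strand, the gap shared with H2ac5-ps): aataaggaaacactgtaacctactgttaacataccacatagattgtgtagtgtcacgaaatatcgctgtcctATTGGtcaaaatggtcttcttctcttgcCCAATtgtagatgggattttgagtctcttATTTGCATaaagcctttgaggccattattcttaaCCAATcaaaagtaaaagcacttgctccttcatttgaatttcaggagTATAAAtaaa
H3c6 (chr13:23562386-23562635, minus strand): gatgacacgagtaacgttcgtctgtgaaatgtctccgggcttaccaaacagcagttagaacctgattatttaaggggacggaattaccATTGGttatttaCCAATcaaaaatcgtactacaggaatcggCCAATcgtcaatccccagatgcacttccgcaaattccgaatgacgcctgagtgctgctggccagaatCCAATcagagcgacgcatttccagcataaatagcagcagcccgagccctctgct
H4c1 (chr13:23761250-23761499, minus strand): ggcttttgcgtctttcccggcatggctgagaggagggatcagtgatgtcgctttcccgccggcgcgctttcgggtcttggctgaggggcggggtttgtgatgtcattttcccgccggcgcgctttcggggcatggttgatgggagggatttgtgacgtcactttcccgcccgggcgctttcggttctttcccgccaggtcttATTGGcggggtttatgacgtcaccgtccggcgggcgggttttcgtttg
H4c3 (chr13:23698459-23698708, minus strand): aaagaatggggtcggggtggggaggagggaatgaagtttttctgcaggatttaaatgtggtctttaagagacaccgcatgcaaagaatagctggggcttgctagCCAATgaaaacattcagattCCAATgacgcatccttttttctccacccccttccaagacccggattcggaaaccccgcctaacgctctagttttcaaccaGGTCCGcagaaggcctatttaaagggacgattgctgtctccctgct
H1f4 (chr13:23622559-23622808, minus strand): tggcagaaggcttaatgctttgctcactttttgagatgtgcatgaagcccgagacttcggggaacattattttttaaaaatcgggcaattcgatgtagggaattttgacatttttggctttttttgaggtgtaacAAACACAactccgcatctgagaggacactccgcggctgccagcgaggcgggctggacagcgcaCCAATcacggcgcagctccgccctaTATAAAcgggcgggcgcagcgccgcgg
H2bc23 (chr13:21810200-21810366, minus strand, the gap shared with H2ac23, no region): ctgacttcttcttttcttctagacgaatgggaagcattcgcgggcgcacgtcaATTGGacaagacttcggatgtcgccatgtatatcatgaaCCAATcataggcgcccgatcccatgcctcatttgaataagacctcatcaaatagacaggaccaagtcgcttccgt
H2bc1 (chr13:23934157-23934406, minus strand, a germline gene, no region): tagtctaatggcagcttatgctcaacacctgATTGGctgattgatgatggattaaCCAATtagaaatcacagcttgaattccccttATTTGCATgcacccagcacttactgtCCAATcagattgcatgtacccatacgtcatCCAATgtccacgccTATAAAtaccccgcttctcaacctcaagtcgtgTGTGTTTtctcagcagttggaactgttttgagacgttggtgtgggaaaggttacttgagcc

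A region was present at 70 of the 76 histone genes (92.1%, Wilson 95% interval 83.8 to 96.3), where 65.9% of 21631 protein-coding genes had one. Among protein-coding genes no longer than 1000 bp, the length class of most histone genes, the share was 9.02% of 1441, and 5.14% of the 1380 that were not histone members. That class is matched for length only. It includes vomeronasal receptor genes, which serve pheromone sensing, and 1 of the 35 such genes within the chromosome 13 cluster had a region. The interval treats each histone gene as separate, although many histone genes share regions. The median level over all 76 was 31.9-fold (quartiles 16.8 and 46.4), against 9.62-fold over all protein-coding genes (upper quartile 32.3). Over genes with a summit in reach alone the medians were closer, 34.4-fold and 26.3-fold. Of the members, 30 stood above 40-fold, 24 between 20-fold and 40-fold, and 16 were called below 20-fold. Of all protein-coding genes, 17.2% exceeded 40-fold, against these 30 of 76 members, and 25.5% exceeded the members' median. The highest member value was 65.2-fold and the highest protein-coding value 329.8-fold.

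The large cluster on chromosome 13 held 56 members over 2219 kb, in 4 subclusters separated by gaps of 198, 1487 and 169 kb. A region was present at 52 of these 56 genes (92.9%, 83.0 to 97.2), with a median of 36.6-fold. The 20 members elsewhere had a region at 18 (90%, 69.9 to 97.2), with a median of 22.3-fold. The shares differed by less than their counting intervals. Read at the genes' own listed starts, as described further on, the medians were 34.2-fold in the cluster and 14.6-fold for the 15 genes elsewhere. These 15 include the replacement or germline genes H1f0, H1f10, H1f7 and H1f8. They also include H3c14, H3c15, H2ac18 and H2ac19, whose promoters are largely copied elsewhere. Without members with such copied promoters, the medians within 1000 bp were 42.7-fold in the cluster and 27.4-fold for 16 genes elsewhere. These 16 still include H1f0, H1f10, H1f7 and H1f8 and the lone pseudogenes H1f11-ps and H2af-ps2. The cluster genes still include the germline genes H1f6, H2ac1 and H2bc1. The difference in median was not tested, because genes that share a culture and regions are not replicates, and the levels overlapped widely, from 0 to 65.2 in the cluster and from 0 to 46.4 outside it. Protein-coding genes of chromosome 13 that are not members were called at 489 of 775 (63.1%), with a median of 8.81-fold.

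Within the cluster the subclusters differed. Subcluster 1 (chr13:21715711-21837530) had 17 of 19 genes called and a median of 29.8-fold. Subcluster 2 (chr13:22035122-22043658) had 5 of 5 called at 26.1 to 50.0-fold. Subcluster 3 (chr13:23531044-23764412), the largest, had 30 of 30 called, with a median of 39.9-fold. Subcluster 4 (chr13:23933725-23934913) consists of the germline pair H2bc1 and H2ac1, and neither was called. In the plot of levels in genome order, 6 neighbours at the far end of subcluster 1, from H2bc23 to H4bc24, lay between 0 and 10.7-fold, directly beside H2ac22 and H2bc22 at 50.0-fold. The promoters of these 6 are largely copied elsewhere, so their levels are uncertain, as described further on. They include the uncalled genes of subcluster 1, and they lower its share and median. All its remaining genes were called, at 15.4 to 50.7-fold. Other low values stood apart from the 6 neighbours: H1f6 at 2.43-fold lay in subcluster 3 between H2bc4 at 65.2-fold and H4c3 at 44.9-fold. H3c3 at 18.2-fold lay beside H2ac5-ps at 55.6-fold.

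**Figure D1:**
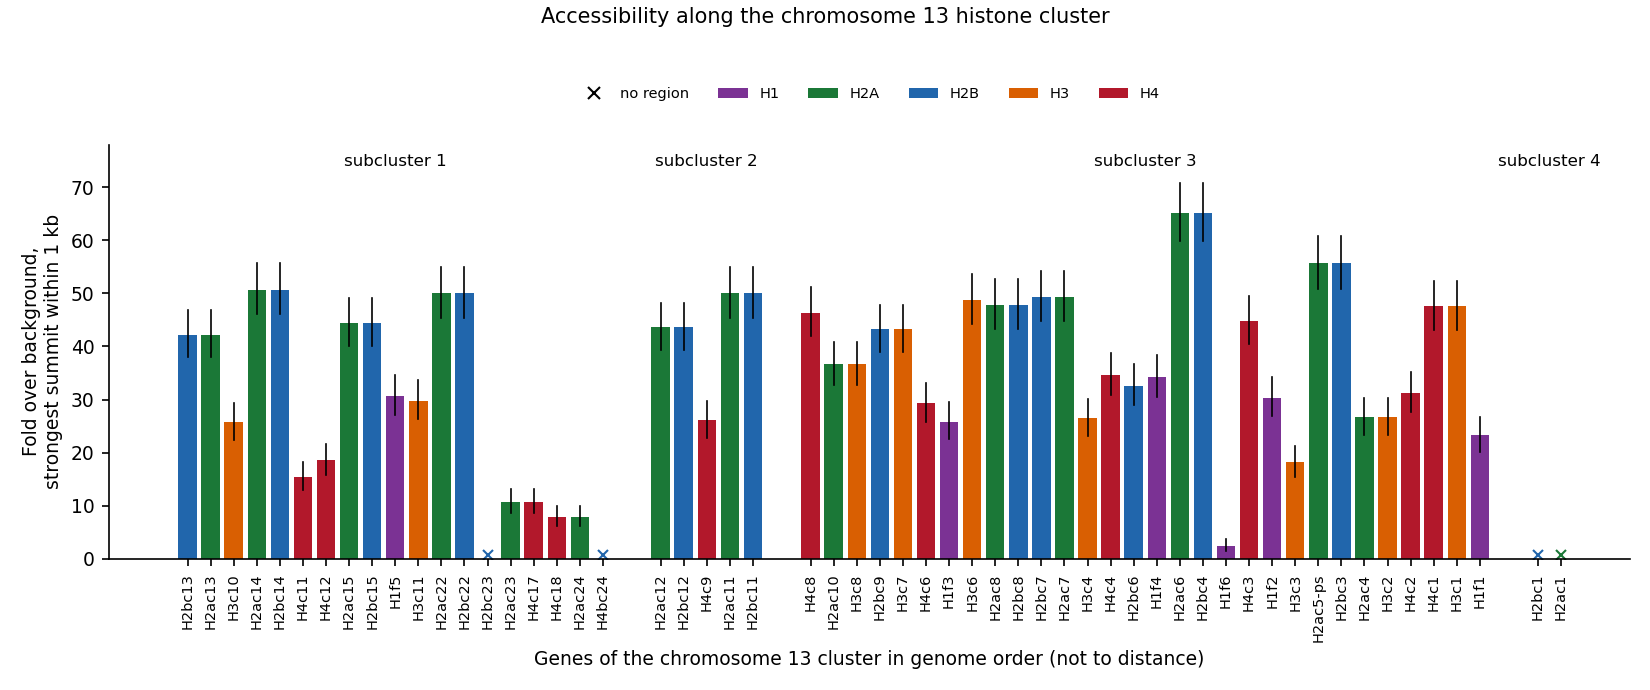
Each bar is the fold over background of the strongest summit within 1 kb of either end of a histone gene, in genome order along the chromosome 13 cluster, coloured by subfamily; lines are exact Poisson 95% intervals (counting error only) and crosses mark genes without a region. Levels range from 2.43 to 65.2 among the 52 called genes, and the 4 crosses lie at the end of subcluster 1 and in subcluster 4.

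Genes of H2A and H2B, which form a dimer in the nucleosome and often share a promoter, had the highest levels. In subclusters 1 to 3 the median was 46.1-fold for the 14 H2A genes and likewise 46.1-fold for the 14 H2B genes, against 29.8-fold for 9 H3 genes, 29.3-fold for 11 H4 genes and 28.1-fold for 6 H1 genes. The equal H2A and H2B medians reflect shared summits and are not separate observations. The strongest site lay in the 239 bp between H2ac6 and H2bc4, at 65.2-fold (59.9 to 70.8). The gap between the pseudogene H2ac5-ps and H2bc3 followed at 55.6-fold (50.8 to 60.9), and that between the pseudogene H2ac14 and H2bc14 at 50.7-fold (46.0 to 55.6). The interval of the H2ac6 site lies wholly above that of the H2bc14 site and overlaps that of the H2bc3 site at its edge. The pairs H2ac22 with H2bc22 and H2ac11 with H2bc11 were each at 50.0-fold (45.4 to 54.9).

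Among H3 genes, H3c6 was the strongest at 48.7-fold (44.2 to 53.6), and it shared its region with no other histone gene. H3c1 was at 47.5-fold through a summit shared with H4c1, and H3c13 on chromosome 3 at 46.4-fold through a summit shared with H2bc18. The summit nearest H3c13's own start reached 20.9-fold. The weakest H3 genes were H3c14 at 3.94-fold (2.75 to 5.49) and H3c15 at 10.3-fold (8.30 to 12.7), both on chromosome 3, and in the chromosome 13 cluster no H3 gene was below 18.2-fold, the level of H3c3.

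Among H4 genes, H4c1 was the strongest at 47.5-fold (43.0 to 52.4), followed by H4c8 at 46.4-fold (41.9 to 51.1) and H4c3 at 44.9-fold (40.5 to 49.6). Their intervals overlap, so these 3 were not distinguishable. The weakest were H4c18 at 7.88-fold (6.14 to 9.98) and H4c17 at 10.7-fold (8.61 to 13.1), and the next were H4c11 at 15.4-fold and H4c12 at 18.5-fold. The 4 lowest H4 genes all lie in subcluster 1.

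Levels of the linker histone genes ranged from 0 to 44.3-fold. H1f4, H1f5, H1f2, H1f3 and H1f1, the somatic replication-dependent linker genes of the cluster, lay between 23.3 and 34.2-fold, with H1f4 highest at 34.2-fold (30.4 to 38.3) and H1f1 lowest at 23.3-fold (20.2 to 26.7). For H1f5 the 30.6-fold summit lay beyond the far end of the gene, and its own start had 10.8-fold (8.71 to 13.2). The 25.9-fold summit of H1f3 likewise lay beyond the far end, and its own start had 24.3-fold (21.2 to 27.9). At their own starts the 5 genes ranged from 10.8 to 34.2-fold. H1f6, the testis linker histone, lies among them in subcluster 3 and had only 2.43-fold (1.53 to 3.70), from a pileup of 20 where the weakest in the list was 17. Of the linker genes elsewhere, H1f0, a replacement linker histone of resting and differentiated cells, was the highest of all H1 genes at 44.3-fold (39.96 to 49.0). That summit lay 2599 bp past its start, beyond the far end of the gene, while a region over the start reached 25.5-fold and the strongest summit within 250 bp of the start only 6.38-fold. H1f10, also a replacement form, was at 3.48-fold (2.37 to 4.94) and the pseudogene H1f11-ps at 5.33-fold (3.92 to 7.10). H1f7 of spermatids and H1f8 of oocytes had no region.

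**Figure D2:**
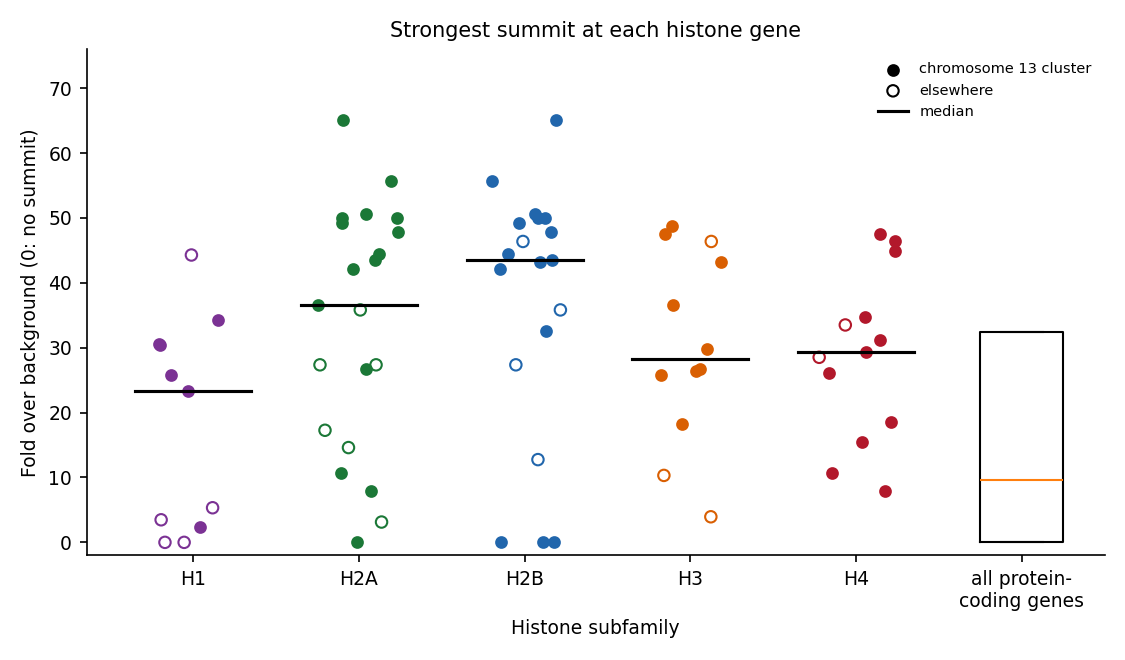
Each point is a histone gene's strongest summit within 1 kb of either end, as fold over background, by subfamily (filled, chromosome 13 cluster; open, elsewhere; bar, median; points spread sideways for visibility), and the box gives the quartiles and median of all 21631 protein-coding genes. H2A and H2B reach 65.2-fold, H3 and H4 stop at 48.7 and 47.5, and every subfamily but H3 and H4 has members at 0.

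Outside the cluster the chromosome 3 group (chr3:96219885-96270192) had all 10 genes called, with a median of 27.4-fold. H3c13 and H2bc18 were the highest there at 46.4-fold, H4c14 was at 28.5-fold, and H2ac21, H2ac20 and H2bc21 shared 1 summit at 27.4-fold. The remaining 4, H2ac18 at 17.3-fold, H2ac19 at 14.6-fold, H3c15 and H3c14, formed the low part of this group. In the chromosome 11 group, H2aw and the pseudogene H2bu1-ps shared a summit at 35.8-fold (31.9 to 40.04) and H2bu2 was at 12.8-fold (10.5 to 15.4). Among genes that stand alone, H4f16 on chromosome 6 was at 33.5-fold (29.8 to 37.6), within the range of H4 genes in the clusters. The pseudogene H2af-ps2, which lies on chromosome 13 but far from the cluster, was at 3.13-fold (2.09 to 4.53).

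The 70 called genes rested on far fewer separate observations. They were served by 59 separate regions, 39 of them in the chromosome 13 cluster, and had 50 separate strongest summits, over which the median was 30.5-fold. For 53 of the 70, a region also came within reach of another histone gene, and 39 had their strongest summit in common with another. Of the 59 regions, 34 served 1 gene, 19 served 2, 5 served 3 and 1 served 5. The combination met most often was H2A with H2B, in 7 regions, followed by H2A with H3 in 5. Since 50 members lie within 1000 bp of the end of another member, this sharing is in part set by the spacing of the genes and the reach that was chosen. With a reach of 500 bp, 42 genes shared a region.

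H2A and H2B genes that are transcribed away from each other across a short gap were the clearest case. Of 10 such pairs with both strands listed and gaps of 163 to 280 bp, 7 had a summit inside the gap that was the strongest of both genes. The other 3 pairs, H2bc23 with H2ac23, H2ac24 with H4bc24 and the germline H2bc1 with H2ac1, had no summit in the gap. A further 5 adjacent H2A and H2B genes for which the table lists no strand for at least 1 gene all had the summit in the gap. Over the 12 pairs with a summit between them it stood at 27.4 to 65.2-fold. Pairs on the same strand behaved less uniformly. Between H2ac4 and H3c2, 752 bp apart, the common summit of 26.7-fold lay at -21 bp from the start of H3c2 (negative positions are upstream) and 1236 bp past the start of H2ac4, whose own start had 21.4-fold. Between H2ac13 and H3c10, 768 bp apart, each gene had its own summit, at 42.2 and 25.7-fold.

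The region that served 5 genes covered 6008 bp (chr13:23570385-23576392) and held 10 summits. It spanned H2ac8, H2bc8, H2bc7, H2ac7 and H3c4. As the map of this region shows, 3 summits stood out: 47.8-fold between H2ac8 and H2bc8, 49.3-fold between H2bc7 and H2ac7, and 26.4-fold at the start of H3c4. The other 7 reached 3.13 to 9.04-fold. The 5 regions that served 3 genes were those of H2bc13, H2ac13 and H3c10; of H4c9, H2ac11 and H2bc11; of H3c3, H2ac5-ps and H2bc3; of H4c1, H3c1 and H1f1; and of H2ac21, H2ac20 and H2bc21. Regions at histone gene ends had a median width of 1508 bp (n = 59), those at the ends of other protein-coding genes 1126 bp (n = 18039). Among regions of at least 10-fold the medians were 1988 and 1646 bp, and 80.5% of the former against 68.1% of the latter held several summits.

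**Figure D3:**
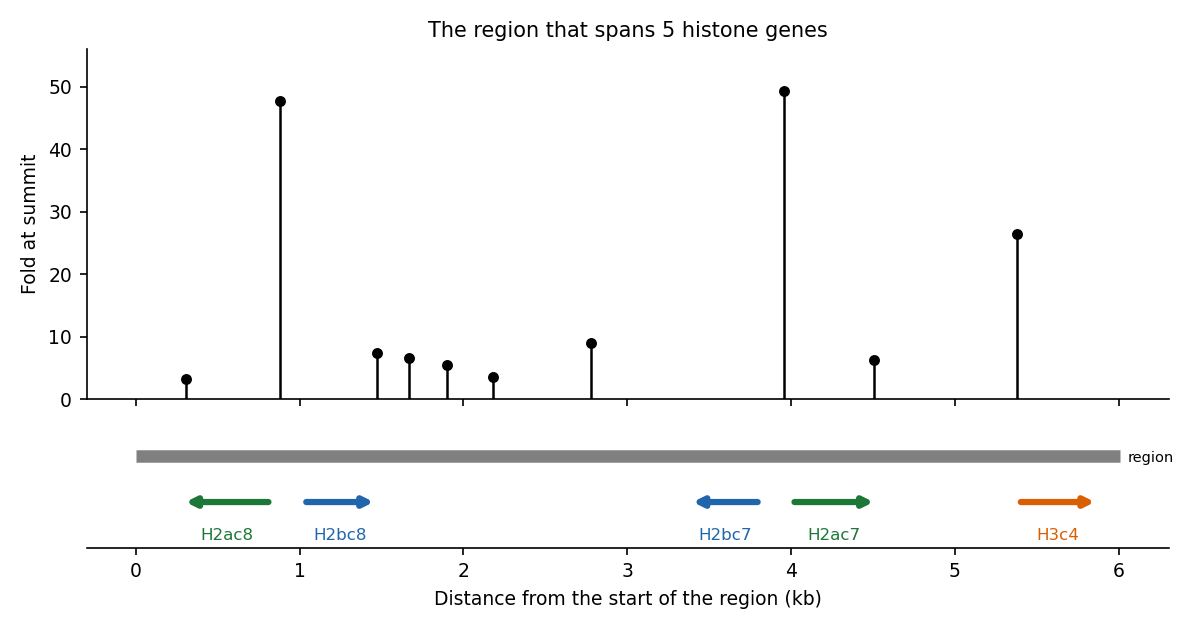
The upper panel gives the fold over background at each of the 10 summits of the region that spans 5 histone genes, by distance from the region's start in kb; the lower panel shows the region and the genes, each arrow pointing in the direction of transcription. The 2 highest summits, 47.8 and 49.3, fall in the gaps between divergent H2A and H2B genes, and the next, 26.4, at the start of H3c4.

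A start was listed for 66 members, and these were read again with only summits within 250 bp of their own start. A summit was present at 55 of the 66 (83.3%), against 43.1% of the 32619 starts in the table. The 11 without one were the germline genes H1f6, H2bc1, H2ac1, H1f7 and H1f8, the genes H2bc23, H2ac23, H2ac24, H4bc24 and H3c14, whose promoters are copied elsewhere as described below, and H1f10. The strongest summit of H1f10 lay at -258 bp, just outside this reach. The place of the summit differed between subfamilies. It lay upstream of the start for 13 of 13 H2B genes (median position -104 bp, range -164 to -4) and for 14 of 15 H2A genes (median -79 bp). For 12 H4 genes it lay close to the start, from -32 bp to 76 bp past it, with 8 at or past the start. For 9 H3 genes the median was -7 bp, with 5 upstream and 4 at or past the start. For H1f1 to H1f5 it was 61 bp past the start, with H1f1 alone upstream. These positions were not tested between subfamilies, and divergent partners share summits.

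**Figure D4:**
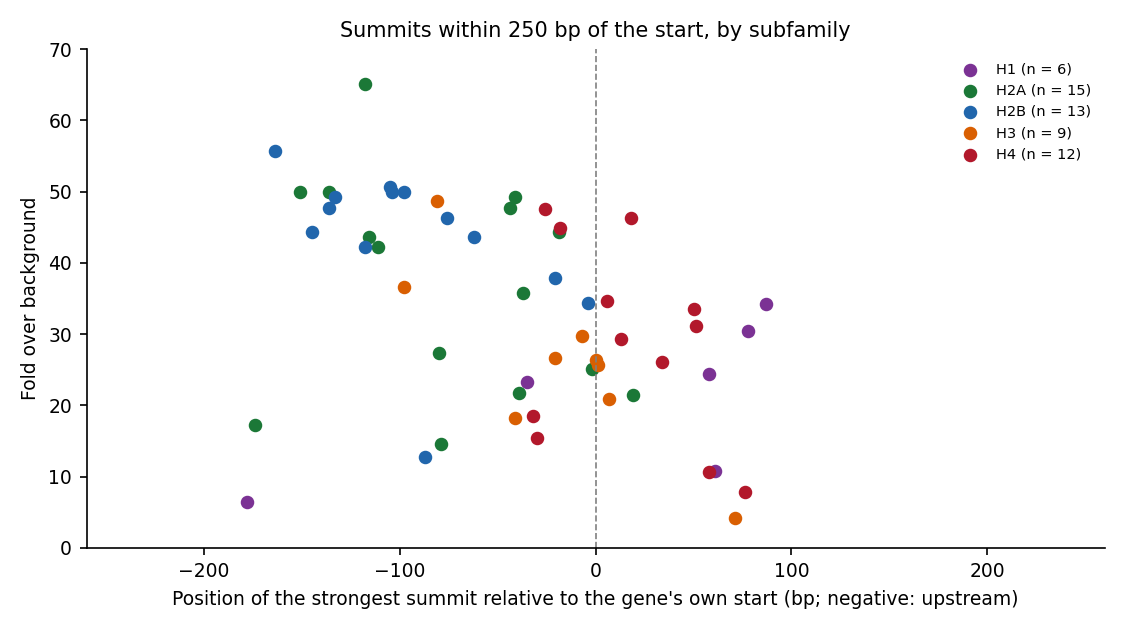
Each point is 1 of the 55 histone genes with a summit within 250 bp of its listed start: the horizontal axis gives the summit's position relative to the start in bp (negative, upstream), the vertical axis its fold over background, and the colour the subfamily. Every H2B point and 14 of 15 H2A points lie left of the start, and 8 of 12 H4 points lie at or right of it.

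The choice of place mattered for single genes. The H1f5 summit described above lay 1149 bp past its start. H2ac10 was at 36.6-fold through the summit of H3c8 and at 21.8-fold (18.8 to 25.1) at its own start. H2ac23 and H2ac24 had a region only through their downstream neighbours H4c17 and H4c18, and none at their own starts.

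Of the 6 histone genes without a region, 4 were germline genes: H2bc1 and H2ac1, which encode the testis forms of H2B and H2A, H1f7 and H1f8. Of the 5 germline genes in all, only H1f6 was called. Defining markers of male germ cells were at 0 at their ends, while Ddx4 had a summit of 4.29-fold inside the gene. No markers of oocytes, where H1f8 is used, were read. The other 2 genes without a region were H2bc23 and H4bc24, at the far end of subcluster 1, which had no summit anywhere between their outer ends. With a reach of 2000 bp both were called, but that reach takes in the regions of H4c17 and H4c18. At their own starts H2bc23 and H4bc24 had no summit. The 4 germline genes remained without a region at 2000 bp. With a reach of 500 bp, H2ac23 and H2ac24 joined the uncalled genes. When only records of at least 5-fold were kept, H2af-ps2 and H1f10 did.

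H2bc23 and H4bc24 have promoters that are 100% identical over the 300 listed bases, and the genes around them are likewise near copies: the promoters of H4c17 and H4c18 are 99.3% identical. Reads from such copies cannot be placed with certainty, and no source used here says how the authors treated them, so the levels of these genes are uncertain. To describe this for all members, the share of each promoter's 50-base runs that also occur in another promoter at a different place was counted. For 54 members the share was 0, and their median level was 36.2-fold. For 10 members it was above 50%: H2bc23, H2ac23, H4c17, H4c18, H2ac24 and H4bc24 in subcluster 1, and H3c14, H3c15, H2ac18 and H2ac19 on chromosome 3. These 10 had a median of 9.10-fold and none was above 17.3-fold, while 8 of them were called. At their own starts 5 of the 10 had a summit, and the median over all 10 was 2.09-fold. Between these extremes, H4c11 and H4c12 shared 11.6% of runs, had 91.7% identical promoters and stood at 15.4 and 18.5-fold. The part of read placement in these low levels was not tested. Of the 49 members with no copied promoter that are not germline genes, 48 had a summit at their own start. The exception was H1f10, whose summit lay just outside the reach.

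**Figure D5:**
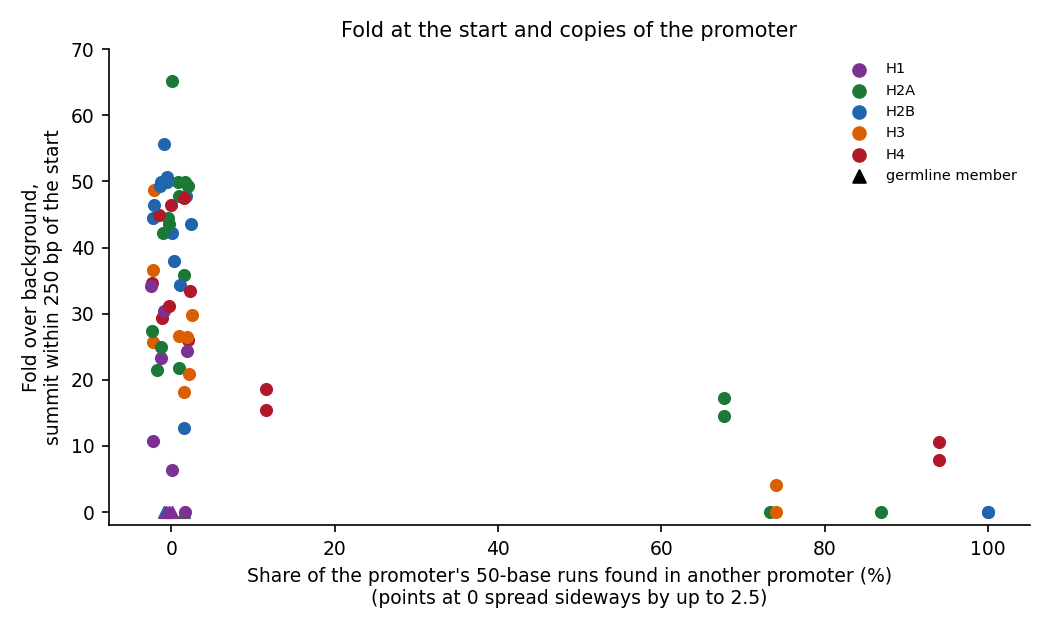
Each point is 1 of 66 histone genes: the horizontal axis gives the percentage of the 50-base runs of its promoter that occur in another promoter (points at 0 spread sideways), the vertical axis the fold of the strongest summit within 250 bp of its start, with colour for subfamily and triangles for germline genes. The 10 genes above 50% lie at or below 17.3-fold, with H2bc23 and H4bc24 on top of each other at 100% and 0-fold, and the genes at 0% spread up to 65.2-fold.

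Short sequence motifs known from histone promoters were searched in the 67 promoters listed for the 66 members, from 250 bases before to 50 after the start and on both strands, beside all 32851 promoters of the table. TATAAA, the core letters of the TATA box, was in 35 of 67 (52.2%) against 13.6% of all. On the gene strand it was in 30 of 67 against 8.32%, at a median of -32 bp. That median was -147 bp in H3 and -79.5 bp in H4 promoters, so not every match lies where a TATA box would. CCAAT, the box bound by NF-Y, was in 55 of 67 (82.1%) against 37.4%. It was in all 18 H2A, all 17 H2B and all 10 H3 promoters and in 7 of 10 H1 promoters, but in 3 of 12 H4 promoters. The H2ac6 and H2bc3 sequences printed above carry 3 such boxes each and H3c6 carries 4.

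The octamer ATTTGCAT, bound by Oct-1 and known from H2B promoters, was in 14 of 67 against 1.74% of all promoters: in 7 of 17 H2B promoters, always on the gene strand, and in 7 of 18 H2A promoters, always on the other strand. Divergent H2A and H2B promoters overlap, so 1 match can count for both. In the printed sequences it lies at -90 bp from the start of H2bc3 and, on the other strand, at -130 bp from that of H2ac6. GGTCCG, the core of the H4 element recognised by HINFP, was in 14 of 67 member promoters against 8.25% of all, and in 11 of 12 H4 promoters at a median of -46 bp. H4c1, the H4 gene with the highest level, was alone in lacking it, and H4c3, printed beside it, has it at -46 bp. AAACACA, the H1 box, was in 9 of 67 member promoters (13.4%, interval 7.23 to 23.6) against 7.18% of all, a share just below the interval. It was in 5 of 10 H1 promoters, those of H1f2, H1f3, H1f4, H1f5 and H1f6, at a median of -115 bp. It was thus in the testis gene as well as in somatic genes. At their own starts H1f6 had no summit, and H1f2 to H1f5 had 10.8 to 34.2-fold. The other 4 members with an H1 box were H2ac4, H2bc14 and the uncalled germline genes H2ac1 and H2bc1. TGANTCA, the AP-1 site, was in 3 of 67 (4.48%, interval 1.53 to 12.4), the promoters of H1f5, H2ac13 and H2bc13, against 7.81% of all, a difference smaller than the counting error. The uncalled H2bc1 carries CCAAT boxes, an octamer and a TATAAA match at -94 bp in the printed stretch. A match describes the letters only.

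Regions covered 16.1% of subcluster 1, 59.7% of subcluster 2, 24.4% of subcluster 3 and 0% of subcluster 4. Of the gaps, they covered 12.5% between subclusters 1 and 2, close to the share in subcluster 1, 2.83% of the 1487 kb between subclusters 2 and 3, and 4.49% between subclusters 3 and 4. They covered 4.83% and 3.19% of the 500 kb on either side of the cluster. Between the first and last histone gene lie 50 other protein-coding genes, of which 10 were called, where 65.9% of all protein-coding genes were. The highest were the zinc-finger genes Zfp322a at 37.0-fold and Zfp184 at 29.7-fold, and Hfe, the iron-regulating gene that lies inside subcluster 3, was at 14.5-fold. Vomeronasal receptor genes, which serve pheromone sensing, made up 35 of the 50, and 1 of these 35 had a region (Vmn1r210 at 2.67-fold). The span also holds 77 transfer RNA genes, of which 67 were called (87.0%, 77.7 to 92.8) at a median of 6.49-fold, where 66.2% of all 408 transfer RNA genes were called, at a median of 9.97-fold.

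Genes that act with the histone genes were read in the same way from lists of their known roles. For the 3 lists below, 65.9% of all protein-coding genes were called. The median was 9.62-fold over all protein-coding genes and 26.3-fold over those with a summit in reach. The 8 genes for histone transcription and the processing of histone mRNA were all called, with a median of 50.5-fold. Among them were Npat at 68.9-fold (63.4 to 74.6) and Casp8ap2 at 78.5-fold (72.7 to 84.6), whose products gather at the histone locus body, Hinfp, the activator of H4 genes, at 64.3-fold, and Slbp, which binds the stem-loop, at 49.5-fold. The lowest was Eri1, a nuclease of histone mRNA decay, at 25.2-fold. All 8 histone chaperone genes were called, from Nasp at 24.1-fold to Asf1b at 69.3-fold, with a median of 44.2-fold. Of 11 replacement histone genes, 10 were called with a median of 43.5-fold, led by H2az2 at 72.0-fold and H2ax at 65.3-fold. Macroh2a2 had none, and H3f3b had 5.45-fold at its ends but 62.4-fold at a summit inside the gene. H1f0 and H1f10 are in this list and among the members. The medians of the 3 lists lay above the 31.9-fold of the histone members, which include germline genes and genes with copied promoters. Without members whose promoter is more than 50% copied, the histone median was 35.8-fold.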

How the data were processed

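Mouse colonic organoids (4 libraries, 1 in each of 4 groups) were profiled by bulk ATAC-seq with Tn5, per the labels' protocols. Bowtie2, MACS2 and mm10 are named, without versions, per the submitters' processing notes. The filters, how reads with several placements or duplicates were treated, and which libraries the list pools are not stated there. The deposited list gives, for each summit, a score, a fold enrichment (a linear ratio to background), −log10 p and −log10 q, all values of the peak and not of a sample. In the authors' deposited table the lowest −log10 p was 3.02 and the lowest −log10 q 1.51. Every deposited fold was a whole pileup plus 1 over a background of 7.63 plus 1 (100% of records, tolerance 0.01), and a Poisson tail gave the authors' −log10 p to within 6.03e-06 at low values, so pileups were recovered and given exact Poisson 95% intervals. Total reads per library are not known.

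Records with the same bounds were merged into regions. Gene bounds came from the RefSeq table of GRCm38.p6, starts and promoters from a RefSeq promoter table that listed 66 of the 76 members. With 1 list and no value per library there are no p-values: shares have Wilson 95% intervals. The members and lists were chosen with earlier results of these data known. The genes named are the members without a region, the 3 strongest and 2 weakest called of each subfamily, all members outside chromosome 13, those of the regions that serve most members, those that differ between settings and the comparison lists. Other members were named after their values were seen (H1f1 to H1f6, H4c11, H4c12, H3c3, H2ac4, H2ac10, H3c2, H3c8, and the copied genes), as were the reading at gene starts, the copied promoters, the transfer RNA genes and the named neighbours. The planned promoter for H1, that of H1f0, was replaced by that of H1f4 because the strongest summit of H1f0 lay far from its start, and H2bc4 has no listed promoter. A planned comparison of protein sequences was not made. Alternatives were other windows, thresholds, overlaps and member sets. On simulated data, 200 of 200 planted genes among 21631 were recovered, and 0 genes out of reach of every planted summit were called. Other genes within reach of a planted summit were not counted as false. The 0 follows from the distance rule, so it checks the code only. Python 3.11.15, numpy 2.4.6, pandas 2.3.3, scipy 1.17.1 and biopython 1.88 were used.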

Additional observations from a re-analysis of the deposited data

How the results depend on the processing

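Over 10 alternatives (7 planned, 3 chosen after seeing the data), 74 of 76 recomputed values stayed within 1.5 times the main value, and medians also within a binomial 95% interval of the main median over genes. With 70 of 76 histone genes called, their counts could not rise past that limit, so only a fall could be flagged. Counts were compared as counts even where a setting held fewer genes. There were 55 to 72 histone genes with a region (70 in the main setting) and 44 to 54 in the chromosome 13 cluster (52). Median levels were 28.3 to 36.6-fold over all members, 34.2 to 43.4-fold in the cluster and 14.6 to 27.4-fold elsewhere. The exceptions were both outside the cluster: with summits within 250 bp of a listed start only, 11 of 15 genes had a value, against 18 of 20, and their median was 14.6-fold, against 22.3. That setting drops genes without a listed start. Separate regions ranged from 46 to 65, genes sharing a region from 42 to 58, and called protein-coding genes from 12716 to 15058. No paired analysis was possible because each group has 1 library and the list holds no value per library. The pileup limits weak calls: 17 was the lowest listed, so a gene without a region may still be open below that level.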
